A study of Mus musculus with 2 samples.

Results

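The cells described here are astrocyte-type cells of the mouse subventricular zone in which RNA of Gfap or Thbs4 was found. They were chosen by measured values: at most 10% of a cell's UMIs (unique molecular identifiers, each a counted RNA molecule) from mitochondrial genes, at least 40 UMIs per 10000 summed over Slc1a2, Aldoc, Ntsr2, Cldn10 and Gja1, and at least 2 UMIs of Gfap plus Thbs4. The rule found 167 cells among 3937 barcodes, 60 in library 1 and 107 in library 2. They are called positive cells below. The cells set against them passed the same astrocyte threshold with 0 UMIs of both genes, 616 in library 1 and 377 in library 2, and are called zero cells.

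Single-cell RNA was captured from the lateral subventricular zone of male C57BL/6 mice aged 22 months and 2 months. Tissue of 8 mice of 22 months or 4 mice of 2 months was pooled for a library, and cells were sorted for the surface protein GLAST and against O4, Ter119 and CD45, with 8000 sorted events loaded. There was 1 library per age, and the mice within a library could not be told apart. The deposited matrix separates the libraries by a number at the end of each barcode, and no label ties that number to an age, so the libraries stand here as 1 and 2. With no replicate library, no test was made: intervals are exact 95% intervals that cover counting error only, and a pattern is given in both libraries side by side.

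The subventricular zone along the lateral ventricles holds neural stem cells that have features of astrocytes and that mostly rest outside the cell cycle. When activated they divide and give rise to neuroblasts of the olfactory bulb. Gfap encodes the intermediate filament protein of astrocytes and of these stem cells, and Thbs4 encodes thrombospondin 4, a secreted matrix protein made by subventricular astrocytes. GLAST, the glutamate transporter encoded by Slc1a3, is present on stem cells and on neighbouring astrocytes, so the sort takes both.

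Library 1 held 1849 barcodes and 10440891 UMIs, and library 2 held 2088 barcodes and 13330251 UMIs. The 2 libraries shared 4 barcode sequences, of which 0 belonged to positive cells. Scrublet, a doublet caller, marked 0.811% and 0.527% of barcodes, among them 1 positive cell in each library. Positive cells were somewhat deeper than zero cells: their median was 4206.5 UMIs in library 1 and 3823 in library 2, against 3500.5 and 3336 UMIs in zero cells. The median mitochondrial share was 3.33% and 3.18% in positive cells against 3.26% and 3.64% in zero cells.

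Positive cells made up 7.79% of cells over the astrocyte threshold in library 1 (95% interval 6.00 to 9.92%, 60 of 770 cells) and 18.9% in library 2 (15.7 to 22.3%, 107 of 567 cells). Gfap without Thbs4 was found in 25 positive cells of library 1 and 26 of library 2, Thbs4 without Gfap in 24 and 33, and both genes in 11 and 48. Summed over positive cells, Gfap had 432 CPM (counts per 1000000 UMIs) in library 1 and 1033 CPM in library 2, and Thbs4 had 272 and 378 CPM. The largest count in a single cell was 15 UMIs of Gfap in library 1 and 55 in library 2, and 6 UMIs of Thbs4 in each. At the edge of the rule, 35 and 42 positive cells held exactly 2 UMIs, while 94 and 83 cells over the astrocyte threshold held 1 UMI and were left out of both classes. Near the astrocyte threshold, 80 and 89 cells had between 32 and 50 UMIs per 10000 of the 5 genes, of which 3 and 11 were positive cells.

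Free RNA was gauged in neuroblast-like cells, a class defined after the data had been seen from the neuroblast markers (at least 40 per 10000) and a low astrocyte sum. Gfap had a UMI in 11.3% of all cells over the astrocyte threshold in library 1 and 19.6% in library 2, against 1.51% and 3.12% of neuroblast-like cells. Thbs4 had a UMI in 10.1% and 22.4% of cells over the threshold, against 1.205% and 1.36% of neuroblast-like cells. After each cell was thinned to 2000 UMIs, either gene was found in 11.99% and 23.9% of cells over the astrocyte threshold and in 0.639% and 1.40% of neuroblast-like cells. Median depth did not favour the astrocyte cells, at 3567.5 and 3483 UMIs against 3907.5 and 5344 UMIs. The requirement of 2 UMIs was met by 0 of 332 neuroblast-like cells in library 1 (3 counts, the limit a 0 allows, would be 0.904%) and by 1 of 513 in library 2. Gfap lies at chr11:102887336-102900912 and Thbs4 at chr13:92751590-92794818, both on the minus strand of GRCm38.

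Of the other proposed markers, Fxyd7 and Myl9 had a higher CPM in positive cells of both libraries, and Urah in library 2 only. Fxyd7, a modulator of the sodium-potassium pump, had 39.96 and 111 CPM in positive cells against 16.6 and 31.8 CPM in zero cells. Myl9, a regulatory light chain of myosin, had 43.6 and 133 CPM in positive cells against 21.0 and 45.1 CPM. In library 1 the intervals of the classes overlapped for both genes, since Fxyd7 rested on 11 and Myl9 on 12 UMIs. After thinning, Fxyd7 had a UMI in 3.51% and 20.8% of positive cells against 2.54% and 5.75% of zero cells. Myl9 had a UMI in 3.51% and 26.4% of positive cells against 4.17% and 7.47%, so in library 1 its share was not higher. Urah, which encodes a hydrolase of uric acid breakdown, had 83.7 CPM in positive cells of library 2 against 46.6 CPM. In library 1 it had 7.27 CPM (2 UMIs) in positive cells against 8.31 CPM. Urah had too few UMIs to be compared over both libraries, and its library 2 intervals overlapped (58.9 to 115 against 35.8 to 59.6 CPM). Among library 2 cells with 40 to 80 UMIs per 10000 of the 5 rule genes, it had 129 CPM in positive cells against 121 CPM. With 80 or more it had 33.5 CPM against 12.9 CPM, and the intervals overlapped in both ranges. The 5 astrocyte genes of the rule were mostly lower: the median summed level was 101 and 83.1 per 10000 in positive cells against 134 and 124 in zero cells.

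The word quiescent in the name was checked against division genes. Mki67, a marker of dividing cells, had 7.27 and 24.9 CPM in positive cells, 11.8 and 21.5 CPM in zero cells, and 177 and 181 CPM in neuroblast-like cells. Top2a, needed to separate replicated chromosomes, had 18.2 and 33.9 CPM in positive cells, 21.9 and 38.5 CPM in zero cells, and 463 and 567 CPM in neuroblast-like cells. No positive cell reached 40 UMIs per 10000 of the 36 G2 and M phase genes, the highest being 11.1 in library 1 and 19.4 in library 2. A looser count, cells with at least 2 UMIs of S, G2 or M phase genes after thinning, was met by 66.7% and 77.4% of positive cells and 58.8% and 72.4% of zero cells, with overlapping intervals. Before thinning these shares were 83.3% and 98.1% of positive cells, and 80.2% and 89.1% of zero cells. It was also met by 75% of 88 oligodendrocyte-like cells in library 1 (64.6 to 83.6%) and by 4 of 7 in library 2 (18.4 to 90.1%), and no division is read from it.

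Egfr, the receptor of growth factors that activate stem cells, had 120 and 61.1 CPM in positive cells against 87.9 and 61.4 CPM in zero cells. Dcx, a neuroblast gene, had 14.5 and 22.6 CPM in positive cells against 17.5 and 19.2 CPM. A further 6 and 32 cells held at least 2 UMIs of Gfap plus Thbs4 but fell under the astrocyte threshold. They were deeper, with medians of 7784.5 and 7395 UMIs, and had 100 and 67.8 CPM of Mki67.

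Across 6671 genes with enough UMIs for the comparison (at least 5 expected in each class and library if levels were equal), 134 were at least 1.5-fold higher in positive cells of both libraries, a background of 2.01%. Another 294 genes, 4.41%, were at least 1.5-fold lower in both. Counts of list genes below stand against these shares, and a count of 0 or 1 is not read as a result about its list. For 29 of the higher and 55 of the lower genes the intervals of the 2 classes stood apart in both libraries. The median over all these genes was near 0 on the log2 scale, at -0.0038 in library 1 and -0.013 in library 2.

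**Figure D1:**
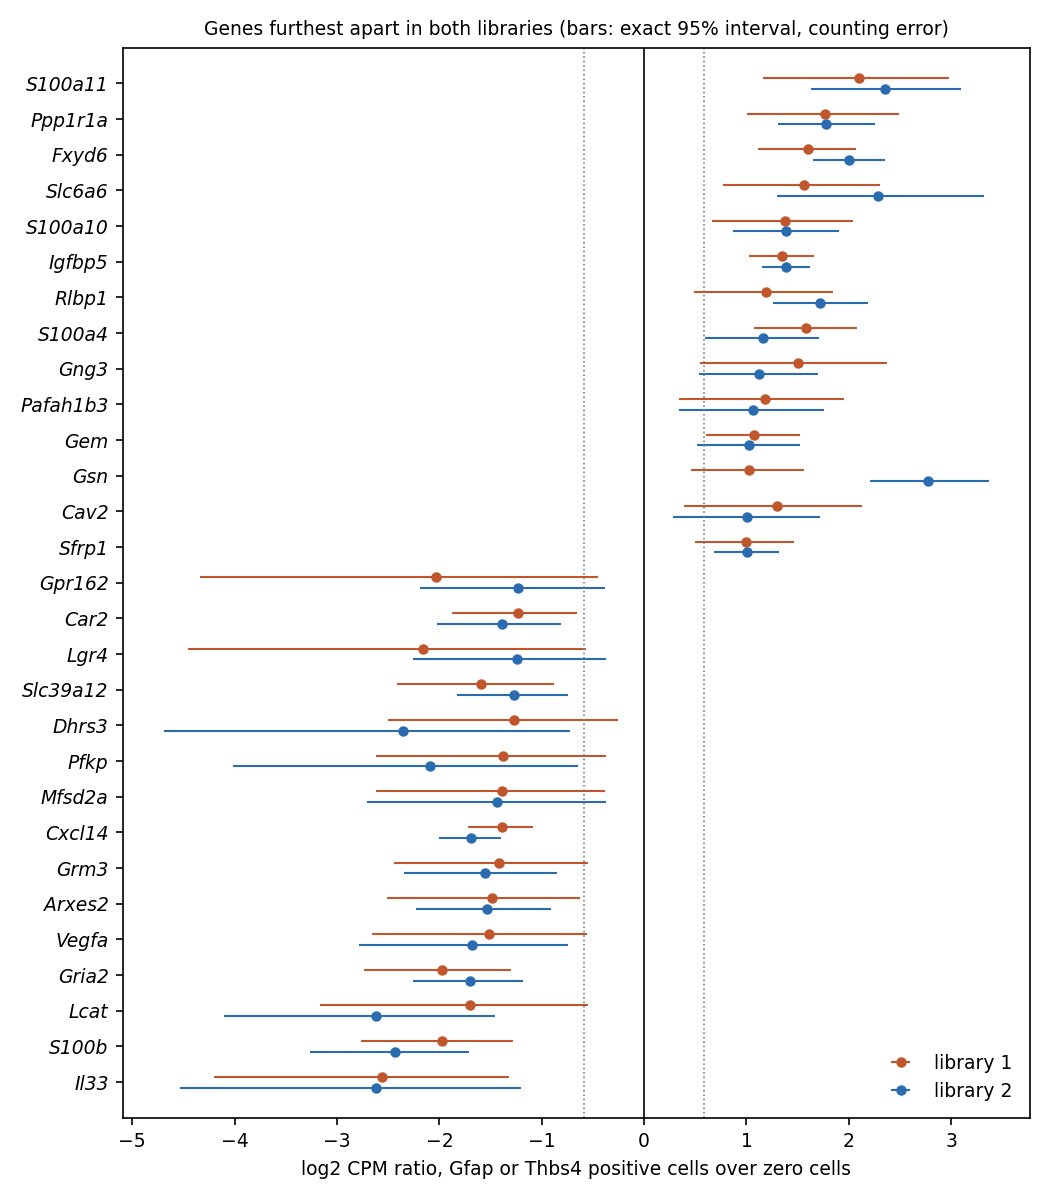
Each row is a gene, and the x axis is the log2 ratio of its CPM in positive cells over zero cells, with library 1 and library 2 as paired points. Bars are exact 95% intervals of counting error, the dotted lines mark 1.5-fold, and the 14 genes above and the 15 below were ranked by the smaller ratio of the 2 libraries.

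The S100 genes encode small calcium-binding proteins, and 4 of them were higher in both libraries. S100a11 had 61.8 CPM in library 1 and 102 CPM in library 2 in positive cells, against 14.4 and 20.0 CPM in zero cells. That is 4.28-fold (2.23 to 7.90) and 5.09-fold (3.09 to 8.54), which ranks it first among the higher genes by the smaller ratio of the 2 libraries. S100a10, the partner of annexin A2, had 90.8 and 136 CPM in positive cells against 35.0 and 51.8 CPM, or 2.59-fold and 2.62-fold. S100a4 had 171 and 111 CPM in positive cells against 56.9 and 49.6 CPM, or 3.002-fold and 2.23-fold. With cells thinned to 2000 UMIs before the rule was applied, its log2 ratio was -0.11 in library 2. S100a6, the most abundant of them, had 923 and 1117 CPM in positive cells against 412 and 627 CPM. S100a11 (chr3:93520488-93526287), S100a10 (chr3:93555080-93564643) and S100a4 (chr3:90603771-90606045) lie on the same chromosome of GRCm38.

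S100b, the family member used as a marker of mature astrocytes, went the other way. It had 61.8 and 36.2 CPM in positive cells against 243 and 195 CPM in zero cells, or 0.25-fold (0.15 to 0.41) and 0.19-fold (0.10 to 0.31). Of 11 measured S100 and annexin genes, 4 were higher and 1 lower in both libraries, against 2.01% and 4.41% of all measured genes. S100a1 and S100a16 showed no such gap: S100a1 had 643 and 846 CPM in positive cells against 721 and 789 CPM, and S100a16 had 658 and 785 CPM against 699 and 743 CPM. S100a10 is not confined to these cells, since after thinning it had a UMI in 10.5% and 22.6% of positive cells, 6.35% and 10.9% of zero cells, and 39.6% and 32.5% of neuroblast-like cells.

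Fxyd6, a regulator of the sodium-potassium pump like Fxyd7, was higher as well. It had 189 and 355 CPM in positive cells against 62.1 and 88.8 CPM in zero cells, or 3.04-fold (2.17 to 4.21) and 4.00-fold (3.13 to 5.11). Fxyd6 is not confined to these cells. After thinning it had a UMI in 15.8% and 40.6% of positive cells and 9.44% and 12.9% of zero cells. Neuroblast-like cells had larger shares, at 60.4% and 55.5%.

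Other genes named by the rule encode secreted, transport and signalling proteins. Igfbp5, a secreted binding protein of insulin-like growth factors, had 400 and 658 CPM in positive cells against 157 and 252 CPM in zero cells, or 2.55-fold (2.04 to 3.17) and 2.62-fold (2.23 to 3.07). Sfrp1, a secreted antagonist of Wnt, had 167 and 319 CPM in positive cells against 84.0 and 159 CPM, but in library 1 its log2 ratio was -0.20 for cells with at least 3 UMIs of Gfap plus Thbs4. Slc6a6, the taurine transporter, had 76.3 and 54.3 CPM in positive cells against 25.8 and 11.1 CPM. Ppp1r1a, an inhibitor of protein phosphatase 1, had 83.6 and 183 CPM in positive cells against 24.5 and 53.3 CPM. The retinaldehyde-binding protein gene Rlbp1 was 2.28-fold and 3.29-fold higher, and Gsn, which encodes the actin-severing protein gelsolin, was 2.03-fold and 6.84-fold higher. The remaining named genes, Gng3, Pafah1b3, Gem and Cav2, were between 2.01-fold and 2.83-fold higher in either library. After thinning, Pafah1b3 had a log2 ratio of -0.093 in library 1.

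Vim, the intermediate filament gene shared by stem cells and reactive glia, had 247 and 369 CPM in positive cells against 124 and 149 CPM in zero cells. It was the 1 of 3 measured genes of the intermediate filament list that passed 1.5-fold in both libraries. With cells thinned to 2000 UMIs before the rule was applied, 1 gene of the list was left, by UMI counts Vim. Its log2 ratio in library 1 was then negative. Nes, the filament gene of activated stem cells, had too few UMIs to be compared. Cpe, a peptide-processing enzyme, had 6357 and 6591 CPM in positive cells against 3623 and 4062 CPM, and Id3, a target of BMP signalling that restrains differentiation, had 1464 and 1194 CPM against 846 and 736 CPM. Of 10 measured markers of quiescent stem cells, these 2 were higher and 1, Crym, was lower, at 886 and 443 CPM in positive cells against 1801 and 1201 CPM. Hes5, a Notch target, had 1068 and 1246 CPM in positive cells against 1311 and 1359 CPM. Of 14 measured Notch genes, 0 passed in either direction. Over all measured genes 2.01% were higher and 4.41% lower, and the Notch count lies near these shares.

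Of 15 measured astrocyte markers outside the rule, 0 were higher and 8 lower in both libraries, with median log2 ratios of -0.66 and -0.97. The shares over all measured genes were 2.01% higher and 4.41% lower. Aqp4, the water channel of astrocyte endfeet, had 116 and 138 CPM in positive cells against 291 and 246 CPM in zero cells. Htra1, a secreted protease, had 592 and 468 CPM in positive cells against 1233 and 1085 CPM. Fgfr3, a growth factor receptor, had 156 and 113 CPM in positive cells against 267 and 240 CPM. These markers are not independent of the rule's astrocyte sum, which was itself lower in positive cells: against zero cells matched on that sum, the medians were -0.41 and -0.44.

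Gria2, a subunit of AMPA-type glutamate receptors, had 65.4 and 74.6 CPM in positive cells against 257 and 242 CPM in zero cells, or 0.25-fold (0.15 to 0.41) and 0.31-fold (0.21 to 0.44). Grm3, a metabotropic glutamate receptor, had 39.96 and 40.7 CPM in positive cells against 107 and 120 CPM. The GABA transporter gene Slc6a11 was 0.63-fold in library 1 and 0.51-fold in library 2. Of 16 measured genes for uptake and metabolism of these transmitters, 0 were higher and 6 lower in both libraries. The shares over all measured genes were 2.01% and 4.41%. The sort gene itself differed less: Slc1a3 had 2467 and 1854 CPM in positive cells against 2530 and 2612 CPM.

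Cxcl14, a chemokine, had 320 and 231 CPM in positive cells against 838 and 747 CPM in zero cells, or 0.38-fold (0.30 to 0.47) and 0.31-fold (0.25 to 0.38). Il33, an alarmin of the interleukin-1 family, had 18.2 and 9.04 CPM in positive cells against 107 and 55.5 CPM. After thinning, Il33 had a UMI in 5.26% and 1.89% of positive cells, 20.7% and 10.3% of zero cells, and 2.24% and 0.200% of neuroblast-like cells. Its shares in positive cells rested on 3 and 2 cells, and their intervals overlapped those of neuroblast-like cells. Vegfa, the vascular growth factor, was 0.35-fold and 0.31-fold. Of 17 measured Wnt pathway genes, Sfrp1 was higher and 4 were lower, against 2.01% and 4.41% of all measured genes. The lower ones were the ligand genes Wnt7a and Wnt7b, the receptor gene Fzd9 and the R-spondin receptor gene Lgr4. Lgr4 had 10.9 and 27.1 CPM in positive cells against 48.6 and 64.4 CPM.

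Lcat, which esterifies cholesterol on lipoproteins, had 21.8 and 13.6 CPM in positive cells against 70.9 and 83.6 CPM in zero cells, and Mfsd2a, a transporter of lysophospholipids, had 29.1 and 18.1 CPM against 76.1 and 48.8 CPM. Of 24 measured genes of cholesterol and fatty acid synthesis, 0 were higher and 5 lower in both libraries, among them Msmo1 at 196 and 391 CPM in positive cells against 350 and 599 CPM. The list's medians were -0.23 and -0.03, and over all measured genes 2.01% were higher and 4.41% lower. In fatty acid oxidation 1 of 25 measured genes, Acsl6, was lower, and in glycolysis 1 of 18, Pfkp, shares near the 4.41% over all genes.

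The remaining genes named for being lower were Dhrs3, a retinaldehyde reductase, Slc39a12, a zinc transporter, Car2, a carbonic anhydrase, and Gpr162, an orphan receptor, all between 0.20-fold and 0.43-fold in either library. After thinning, Gpr162 had 0 UMIs in positive cells of library 1, too few for a direction. Arxes2 was 0.36-fold and 0.34-fold, but it has a near-identical copy, Arxes1, and the split of reads between them is uncertain.

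Ribosomal protein genes shifted together by a small amount. Of 42 measured genes of the cytosolic ribosome, 41 in library 1 and 42 in library 2 had a higher CPM in positive cells, with medians of 0.35 and 0.36 on the log2 scale, and none reached 1.5-fold in both. Against zero cells matched on the astrocyte sum the medians were 0.14 and 0.22. Of 15 measured cilium genes 11 and 12 were above 0, with medians of 0.42 and 0.27, and none passed in both libraries.

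**Figure D2:**
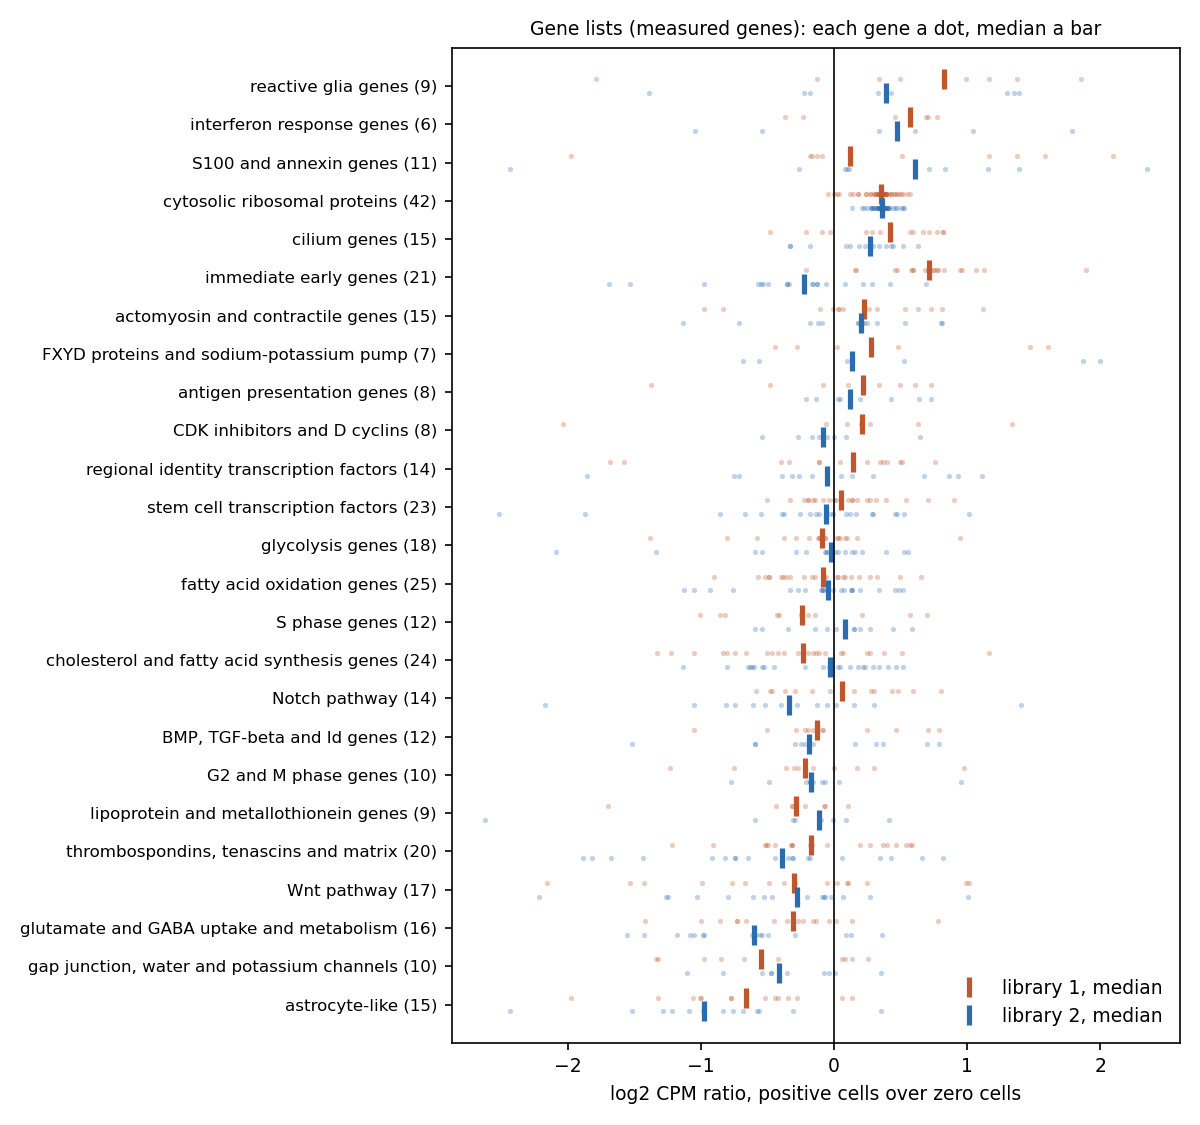
The x axis is the log2 CPM ratio of positive over zero cells, and each row is a gene list with its number of measured genes in brackets. Dots are single genes and bars the list's median in each library: astrocyte markers lie lowest, ribosomal proteins form a tight group above 0, and the immediate early genes lie at 0.71 in library 1 and -0.23 in library 2.

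Several levels ran in order with the number of Gfap plus Thbs4 UMIs in the cell, including the cells with 1 UMI that the rule left out. Cxcl14 had 838, 639, 374, 299 and 152 CPM in library 1 in cells with 0, 1, 2, 3 to 4 and 5 or more UMIs, and 747, 600, 350, 175 and 119 CPM in library 2. Gria2 ran 257, 144, 91.9, 47.9 and 0 CPM over the same classes in library 1 and 242, 135, 125, 54.8 and 25.1 CPM in library 2. Fxyd6 ran the other way, with 62.1, 88.6, 131, 251 and 279 CPM in library 1 and 88.8, 151, 193, 351 and 552 CPM in library 2. Sfrp1 did so in library 2, from 159 CPM at 0 UMIs to 376 CPM at 5 or more, but in library 1 it had 84.0, 112, 243, 83.8 and 50.7 CPM. Median depth over these classes was 3500.5, 3698, 4000, 4240 and 5069.5 UMIs in library 1 and 3336, 3555, 3971.5, 3462 and 3961.5 UMIs in library 2, and its part in the trend was not tested. The class of 5 or more held 8 cells in library 1 and 40 in library 2.

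**Figure D3:**
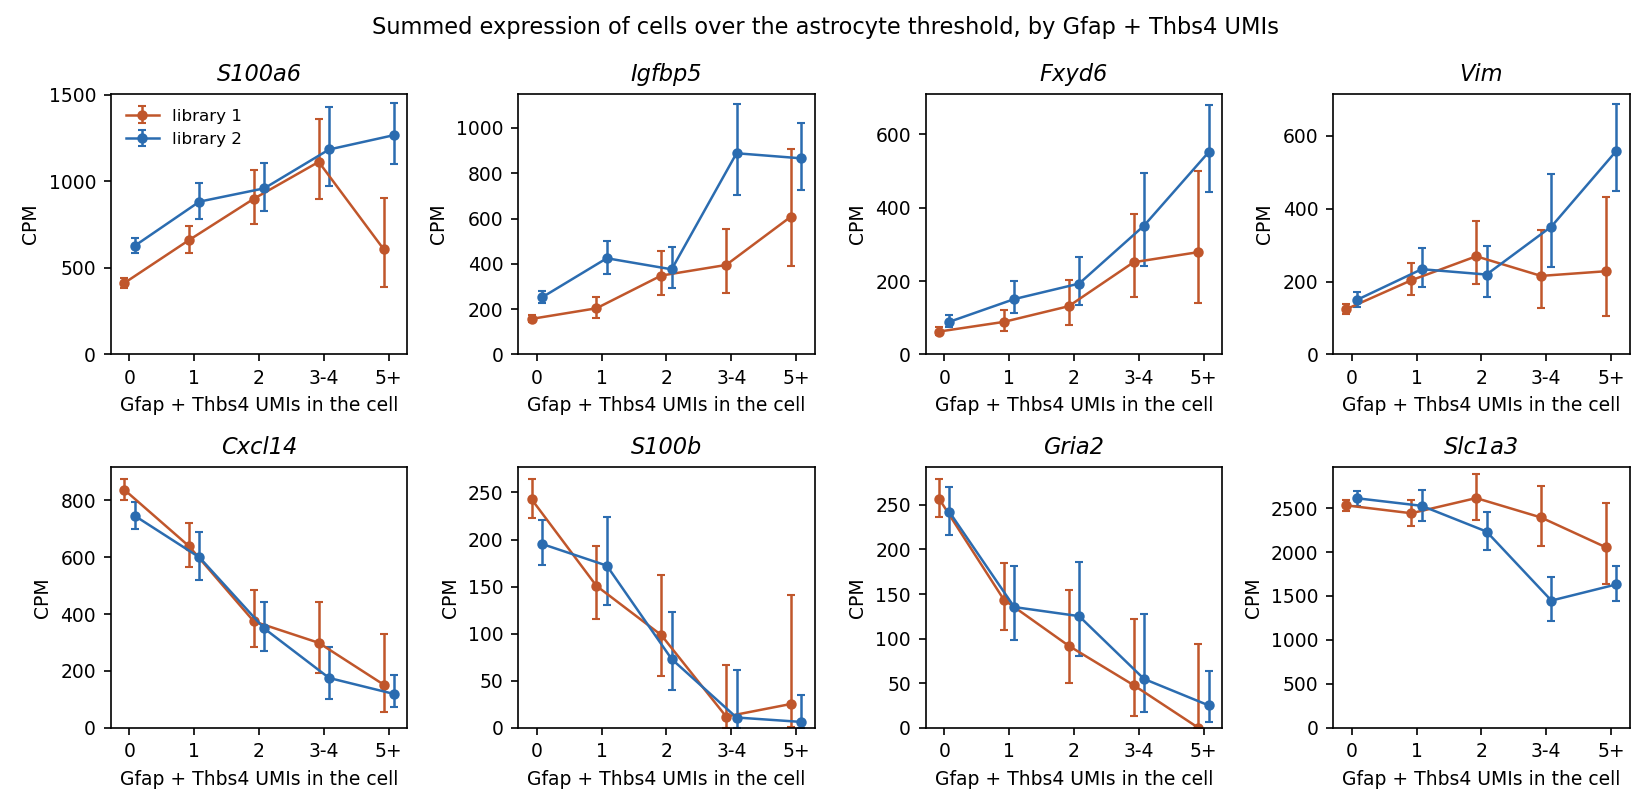
The x axis is the number of Gfap plus Thbs4 UMIs in cells over the astrocyte threshold and the y axis the CPM of the summed cells, with 95% Poisson bars for each library. S100a6, Igfbp5, Fxyd6 and Vim were higher and Cxcl14, S100b and Gria2 lower at 2 UMIs than at 0. Slc1a3 in library 1 was 2530 CPM at 0 UMIs, 2614 CPM at 2 and 2054 CPM at 5 or more. In library 2 it was 2612, 2233 and 1631 CPM.

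The astrocyte sum was lower in positive cells, and the 2 classes were therefore also compared within ranges of it, a split chosen after the data had been seen. Among cells with a sum of 40 to 80 per 10000, Cxcl14 had 118 and 107 CPM in the 21 and 52 positive cells against 98.3 and 102 CPM in the 118 and 103 zero cells. Among cells with 80 or more it had 455 and 368 CPM in positive cells against 1096 and 1041 CPM. Its intervals overlapped between the classes in the low range and stood apart in the high range. In the low range S100b had 9.06 and 17.2 CPM in positive cells against 18.6 and 44.9 CPM. Gria2 had 27.2 and 30.0 CPM there against 74.6 and 49.6 CPM, and Slc6a11 118 and 133 CPM against 146 and 111 CPM. The low-range intervals of these genes overlapped in both libraries. In the high range S100b had 97.0 and 57.4 CPM against 321 and 264 CPM. Gria2 had 91.0 and 124 CPM there against 320 and 330 CPM, and Slc6a11 146 and 120 CPM against 236 and 311 CPM.

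Igfbp5 had 435 and 785 CPM in positive cells of the low range against 308 and 480 CPM in zero cells, and 376 and 516 CPM in those of the high range against 104 and 148 CPM. Fxyd6 had 190 and 446 CPM in the low range against 122 and 175 CPM, and 188 and 253 CPM in the high range against 41.3 and 49.6 CPM. In library 1 the intervals of these 2 genes overlapped in the low range. Id3 had 1332 and 1133 CPM in the low range against 902 and 699 CPM, and 1552 and 1262 CPM in the high range against 827 and 753 CPM. In library 2 S100a6 had 1103 CPM in positive cells of the low range against 1061 CPM, and 1133 CPM in those of the high range against 429 CPM. Sfrp1 in library 2 had 382 CPM in positive cells of the low range against 333 CPM, and 249 CPM in those of the high range against 79.7 CPM. For S100a6 and Sfrp1 the intervals of the classes overlapped in the low range of library 2 and stood apart in the high range. In library 1 S100a6 had 815 CPM in positive cells of the low range against 537 CPM. In the high range it had 995 CPM against 368 CPM, with intervals apart in both ranges. Sfrp1 in library 1 had 208 CPM in positive cells of the low range against 88.1 CPM, with intervals apart. In the high range it had 139 CPM against 82.6 CPM, with overlapping intervals. With zero cells matched on the astrocyte sum over all genes, 154 genes were higher and 199 lower in both libraries, of which 53 and 92 were also among the 134 and 294.

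Cells in which Gfap alone, Thbs4 alone or both were found did not look alike in library 2. Igfbp5 had 905 CPM in cells with both genes, 738 CPM with Gfap only and 284 CPM with Thbs4 only, against 252 CPM in zero cells. Fxyd6 had 537, 403 and 87.8 CPM in the same order, against 88.8 CPM, and Id3 had 1858, 911 and 541 CPM, against 736 CPM. Gria2 had 15.8, 57.5 and 162 CPM, against 242 CPM in zero cells. On these 4 genes the 33 cells with Thbs4 only lay near zero cells or between them and the other positive cells, with Id3 below both. Urah was highest in those cells, at 169 CPM (109 to 249) with Thbs4 only, 38.4 CPM with Gfap only and 42.1 CPM with both.

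Library 1 showed a different arrangement with fewer cells. Igfbp5 had 543 CPM with both genes, 357 CPM with Gfap only and 368 CPM with Thbs4 only, against 157 CPM in zero cells. Id3 had 1823, 1079 and 1747 CPM in that order, against 846 CPM. Sfrp1 had 305 CPM (204 to 438) with Thbs4 only, 89.3 CPM with Gfap only and 105 CPM with both, against 84.0 CPM. S100b had 17.5, 106 and 31.6 CPM, against 243 CPM in zero cells. How far the split reflects chance loss of RNA from single cells was not tested.

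**Figure D4:**
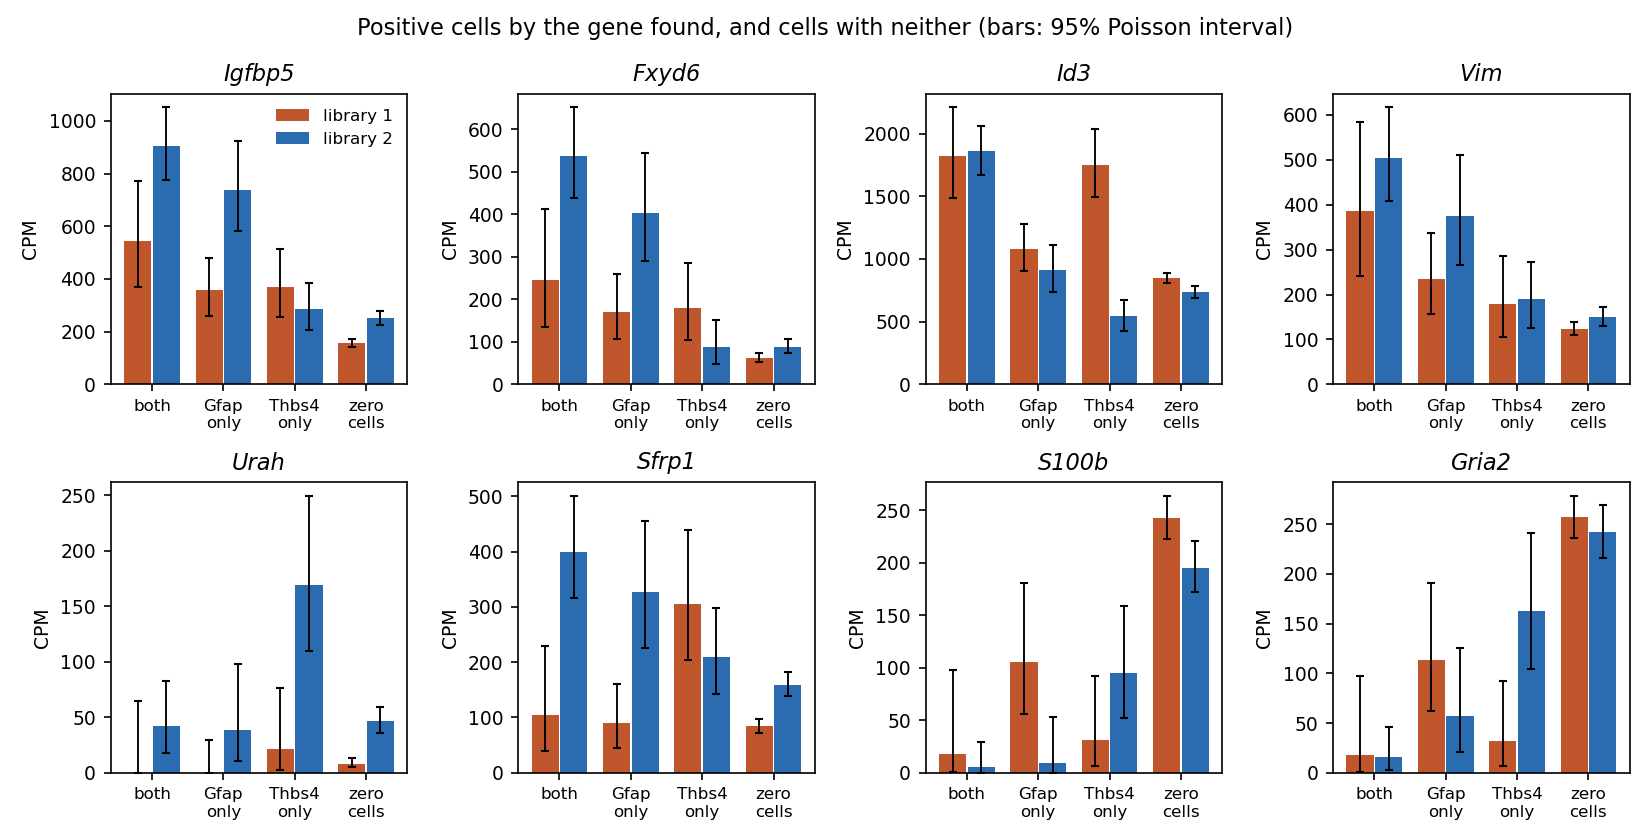
Bars give the CPM of summed cells with 95% Poisson intervals, for positive cells with both genes, Gfap only or Thbs4 only and for zero cells, in library 1 and library 2. In library 2 Thbs4-only cells stand near zero cells for Igfbp5 and Fxyd6 and highest for Urah, and in library 1 they stand highest for Sfrp1.

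Markers of other cell types that could pass the sort were summed in both classes. The 11 microglial markers summed to 7.27 and 9.04 CPM in positive cells against 8.75 and 6.66 CPM in zero cells, with Ptprc, Cx3cr1 and Aif1 at 0 in positive cells of both libraries. The 11 mural cell markers summed to 39.96 and 88.2 CPM against 71.3 and 157 CPM. Acta2, the smooth muscle actin gene, was at 0 in positive cells of both libraries, where Myl9 had the higher CPM. The 8 endothelial markers summed to 14.5 and 6.78 CPM in positive cells against 10.1 and 17.8 CPM, and the 8 fibroblast markers to 7.27 and 31.7 CPM against 25.8 and 27.4 CPM. The 10 oligodendrocyte markers summed to 494 and 251 CPM in positive cells against 554 and 248 CPM. The 8 markers of oligodendrocyte precursors summed to 72.7 and 85.9 CPM against 53.8 and 54.0 CPM, with overlapping intervals. Among them C1ql1 had 21.8 and 49.7 CPM (6 and 22 UMIs) against 1.75 and 4.44 CPM, with too few UMIs to be compared. The 1 marker of this list that could be compared, Matn4, was neither higher nor lower in both libraries. The 14 ependymal markers summed to 302 and 362 CPM against 206 and 299 CPM, and no positive cell was over 18.6 per 10000. The intervals of this sum stood apart in library 1 (240 to 374 against 188 to 226) and overlapped in library 2. Ccdc153 and Spag17 were at 0 in positive cells of both libraries, but they had only 0 to 3 UMIs in zero cells. Foxj1 had 21.8 and 22.6 CPM in positive cells against 3.06 and 6.66 CPM, and Dynlrb2 21.8 and 22.6 CPM against 0.875 and 11.1 CPM. Neither had enough UMIs to be compared. Of the 2 markers that had, 0 were higher or lower in both libraries. The part of the ependymal difference in the higher genes was not tested.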

How the data were processed

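The authors' deposited table holds UMI counts per gene and barcode, whole numbers that were not normalized, for both libraries together. Per the submitters' processing notes, Cell Ranger 2.0.0 was used and GRCm38.p3 and mm10 are named; how cells were called and the libraries merged is not given in the sources used here. Coordinates come from the GENCODE annotation of GRCm38.

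From these counts, UMIs were summed per class and library and scaled to CPM, with exact Poisson intervals; ratio and share intervals are exact binomial (Clopper-Pearson). Cells, members of 1 library, are not replicates, so no test was made. A gene was compared if at least 5 UMIs were expected in each class and library at equal CPM; rule genes and mitochondrial genes were left out, and 0 UMIs was set to 3 in a ratio. The text names the 15 genes furthest apart in each direction by the smaller ratio of both libraries with intervals apart, the markers, and up to 4 genes of each of 39 lists; a few comparison genes (Slc1a3, S100a1, S100a16, Hes5, Mki67, Top2a, Egfr, Dcx) were added after their values were seen, and some genes that the rule names are not reported here. Members and lists were chosen with earlier results of these data known. Alternatives varied the thresholds, depth (thinning with a fixed seed), scaling (edgeR 4.0.16 TMM) and matching of zero cells. The ratio step was tested on simulated data. Scrublet ran within scanpy 1.11.5, and doublets were kept.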

Additional observations from a re-analysis of the deposited data

Results flagged for a closer look

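Immediate early genes, which respond within minutes to stimuli and to tissue dissociation, lay on opposite sides in the 2 libraries: the median log2 ratio of positive over zero cells was 0.71 in library 1 and -0.23 in library 2 over 21 measured genes. Of these genes 20 were above 0 in library 1 and 5 in library 2, and none was at least 1.5-fold apart in the same direction in both. Junb had 1373 CPM in positive cells against 839 CPM in zero cells of library 1, and 509 CPM against 651 CPM in library 2. The difference between the libraries was not tested. In library 1 the median level of the list per cell was 19.4 per 10000 in positive cells with an upper quartile of 109, against a median of 14.0 and an upper quartile of 24.0 in zero cells. In library 2 it was 15.9 with an upper quartile of 36.1 in positive cells, against 12.2 and 21.2. The median per cell was thus higher in positive cells of both libraries, unlike the ratios of summed UMIs. A single cell held 14.1% of the list's UMIs in positive cells of library 1 and 11.5% in library 2. The library 1 median log2 ratio was 0.08 when zero cells were matched on the astrocyte sum.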

How the results depend on the processing

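Library 2 had the larger share of positive cells in the main setting and in all 10 alternatives. The share in library 1 and library 2 was 3.25% and 11.5% with at least 3 UMIs, 20.0% and 33.5% with at least 1, 4.03% and 10.2% with Gfap alone, 3.51% and 9.52% with Thbs4 alone, and 2.84% and 12.04% after thinning to 2000 UMIs. It was 14.4% in library 2 with an astrocyte threshold of 80. Against 134 higher and 294 lower genes, there were 44 and 153 with Thbs4 alone, 15 and 61 after thinning, 274 and 508 with at least 2 expected UMIs, 24 and 67 with at least 20, 22 and 87 at 2-fold, and 29 and 55 with intervals apart, the last chosen after seeing the data. There were 87 higher genes with a mitochondrial limit of 5% and 78 with at least 3 UMIs. TMM scaling gave 104 and 351. Depth-matched zero cells gave 175 and 249, of which 65 and 119 were shared with the main setting. In library 1 Sfrp1 was at -0.20 (log2) with at least 3 UMIs. After thinning, the intermediate filament list was at -0.46 in library 1, where 1 gene was left, by UMI counts Vim. Pafah1b3 was then at -0.093 in library 1 and S100a4 at -0.11 in library 2. Gpr162 was at 0.61 in library 1, a bound from 0 UMIs. The cause was not tested for the other settings; fewer UMIs and fewer cells remain by construction after thinning. Depth limits single genes: S100a11 rested on 17 and 45 UMIs in positive cells. No paired analysis was possible because the replicate numbers do not pair the libraries and no test was made.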

Other observations

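Several pathway genes that no result above turns on were at least 1.5-fold apart in both libraries. Since 2.01% of all measured genes were higher and 4.41% lower, a single gene is not read as a result about its list. Ifitm2, an antiviral membrane protein gene, had 36.3 and 138 CPM in positive cells against 22.3 and 39.95 CPM in zero cells, the 1 of 6 measured interferon response genes that passed. Psme1, an activator of the proteasome, had 134 and 115 CPM in positive cells against 87.9 and 74.0 CPM, the 1 of 8 in antigen presentation. Cdkn2c, an inhibitor of cyclin-dependent kinases 4 and 6, had 153 and 45.2 CPM in positive cells against 60.4 and 28.9 CPM. Gsx2, a transcription factor of the lateral and dorsal ventricular wall, had 43.6 and 38.4 CPM in positive cells against 25.8 and 17.8 CPM, while Gli3, a transcription factor of Hedgehog signalling, had 14.5 and 29.4 CPM against 43.3 and 49.6 CPM. Among matrix genes, Timp4, an inhibitor of metalloproteinases, had 83.6 and 92.7 CPM in positive cells against 194 and 251 CPM. The potassium channel gene Kcnk1 had 203 and 151 CPM in positive cells against 401 and 326 CPM.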
